A study of Mus musculus with 2 samples.

Results

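Cyp4a10, Cyp4a14, Cyp4b1, Angptl4, Pdk4, Acaa1b, Cpt1a and Ehhadh are 8 of the 31053 mouse genes counted in a single-cell RNA-seq study of the injured mouse kidney. They were taken by symbol as genes of the PPAR-alpha programme and of the Cyp4 family of fatty acid hydroxylases. The choice was made with earlier results of these data known. Cells of whole kidneys came from female C57Bl/6 mice of 9 weeks that carried the alleles Pax8.rtTA, TetO.Cre and R26.FUCCI2aR. Pax8 drives the tetracycline-dependent activator in kidney tubule cells, Cre acts under that activator, and FUCCI2aR is a fluorescent cell cycle reporter that Cre switches on. All animals had rhabdomyolysis, the breakdown of skeletal muscle whose released myoglobin harms the tubule. 1 library was made after vehicle and 1 after CA3, a compound that inhibits the transcriptional coactivator YAP1. Both groups share the injury, and no uninjured kidney was analysed here. For each library, the sources used here give neither dose, nor time after injury, nor number of animals.

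PPAR-alpha is a nuclear receptor that binds fatty acids and, paired with RXR, switches on genes that take up, transport and burn them. The proximal tubule lives largely on fatty acid oxidation, and its segments S1, S2 and S3 follow each other from the glomerulus towards the outer medulla. Among the 8 genes, Cyp4a10 and Cyp4a14 encode omega-hydroxylases of fatty acids, and Cyp4b1 encodes a related monooxygenase. Acaa1b and Ehhadh encode enzymes of peroxisomal beta-oxidation, and Cpt1a encodes the carnitine palmitoyltransferase that admits long-chain fatty acids to mitochondria. Pdk4 encodes the kinase that closes the pyruvate dehydrogenase complex in fasting. Angptl4 encodes a secreted inhibitor of lipoprotein lipase, and both Pdk4 and Angptl4 are also known targets of glucocorticoids.

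On mm10, with the GENCODE vM21 annotation, 3 of the genes are near neighbours on chromosome 4. Cyp4a14 lies at chr4:115486200-115496142 on the minus strand, Cyp4a10 at chr4:115518264-115533649 on the plus strand and Cyp4b1 at chr4:115624725-115647723 on the minus strand. The others lie apart, Pdk4 at chr6:5483351-5496309 (minus), Acaa1b at chr9:119148023-119157093 (minus), Ehhadh at chr16:21761287-21787807 (minus), Angptl4 at chr17:33773750-33781830 (minus) and Cpt1a at chr19:3322334-3385733 (plus). The libraries read the 3' ends of transcripts. Of the words of 31 bases in the last 500 bases of the transcripts, 45.3% of those of Acaa1b also occur in its paralog Acaa1a, 13.3% of those of Cyp4a10 in Cyp4a31 and 12.3% of those of Cyp4b1 in the pseudogene Cyp4b1-ps2. The counts of these 3 genes could therefore lack reads that fit both copies. The shares were 0 for Cyp4a14, Angptl4, Pdk4 and Cpt1a.

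3 promoters are shown because their genes stand for the different patterns described below, Acaa1b for the segment pattern, Cyp4b1 for the difference between libraries and Pdk4 for the activated cells. Each is the 250 bases before the RefSeq start, on GRCm38.p6 and on the gene's own strand, from chr9:119157094-119157343, chr4:115647722-115647971 and chr6:5496279-5496528, all on the minus strand. Capitals mark the stretch most like AGGTCANAGGTCA, the direct repeat known to bind PPAR with RXR, searched on both strands.
Acaa1b: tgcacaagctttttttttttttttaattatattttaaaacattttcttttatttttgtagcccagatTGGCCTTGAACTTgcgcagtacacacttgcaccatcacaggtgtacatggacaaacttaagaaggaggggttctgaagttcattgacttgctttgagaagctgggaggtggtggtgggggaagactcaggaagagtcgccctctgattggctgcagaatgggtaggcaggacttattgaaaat
Cyp4b1: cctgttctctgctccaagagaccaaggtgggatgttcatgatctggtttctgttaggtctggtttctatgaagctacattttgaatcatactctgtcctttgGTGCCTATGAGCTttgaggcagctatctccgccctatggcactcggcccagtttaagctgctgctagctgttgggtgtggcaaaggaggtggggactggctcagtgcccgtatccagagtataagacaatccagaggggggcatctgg
Pdk4: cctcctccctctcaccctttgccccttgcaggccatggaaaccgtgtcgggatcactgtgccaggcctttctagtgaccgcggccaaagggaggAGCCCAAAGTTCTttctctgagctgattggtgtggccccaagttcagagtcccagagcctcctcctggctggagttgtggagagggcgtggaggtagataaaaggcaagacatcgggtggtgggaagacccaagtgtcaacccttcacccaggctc
The table held promoters of 5 of the 8 genes (Acaa1b, Cpt1a, Cyp4b1, Ehhadh and Pdk4) and none of Cyp4a10, Cyp4a14 or Angptl4. In all 5 the closest stretch differed from the repeat at 4 of 12 scored bases, and 74.5% of 32851 promoters of this length hold a stretch at least as close. AGGTCA alone was found in the promoter of Cpt1a and in none of the other 4, against 14.0% of all promoters.

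After filtering, 1766 vehicle and 1491 CA3 cells were kept, of which 1442 and 1161 were proximal tubule-like by their markers, in 11 clusters. The median depth of these proximal tubule cells was 7197.5 and 7854 unique molecular identifiers (UMIs), and the median share from mitochondrial genes was 17.97% and 19.5%. Clusters were formed without the 8 genes and the lists named below. By marker scores, 553 vehicle and 469 CA3 cells were early (S1-like), 484 and 354 middle (S2-like), and 54 and 23 late (S3-like, led by Kap, Slc7a12 and Aadat). The remaining 351 and 315 cells carried no clear segment and are called unresolved. 1 early cluster (cluster 6, 88 and 59 cells) and 1 middle cluster (cluster 4, 119 and 93 cells) were led by the immediate early genes Jun, Fosb and Fos, which cells switch on within minutes of a stimulus or of handling. Levels are counts per 1000000 (CPM): a gene's UMIs, summed over the cells of a class or cluster of 1 library, against all their UMIs except those of mitochondrial genes. With 1 library in each group no difference has a replicate check and no p-value was computed. Brackets after a level or ratio give the exact 95% interval for counting error only.

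From early to middle cells, the omega-hydroxylase genes had the highest ratios of the 8 genes in both libraries. Cyp4a10 stood at 57.7 CPM in early, 601 in middle and 732 in late cells of the vehicle library, and at 78.8, 640 and 886 CPM in the CA3 library. The middle level was 10.4 (9.15 to 11.9) times the early level in the vehicle library and 8.12 (7.21 to 9.16) times in the CA3 library. Cyp4a10 was thus low in early cells and stayed high to the end of the tubule in both libraries. Cyp4a14 stood at 16.7, 499 and 260 CPM in early, middle and late vehicle cells, and at 36.3, 537 and 400 CPM in the CA3 library. Its middle over early ratio was 29.8 (23.6 to 38.2) and 14.8 (12.5 to 17.6). Unlike Cyp4a10, Cyp4a14 was lower in late than in middle cells, at 0.52 (0.42 to 0.63) and 0.74 (0.57 to 0.95) times the middle level. Cyp4a10 was at 1.22 (1.07 to 1.37) and 1.38 (1.16 to 1.64) times the middle level, so the intervals of the neighbouring genes did not meet in either library. In late cells, 3 cells held 21.2% (vehicle) and 45.1% (CA3) of the Cyp4a10 UMIs and 34.6% and 50.8% of those of Cyp4a14.

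Both Cyp4a genes parted further in the cells with the strongest S3 markers, a gate chosen after the values were seen. It took proximal tubule cells with 5 or more UMIs of Slc7a12, an amino acid transporter family gene of S3, and Slc22a7, an organic anion transporter gene of S3, summed. 33 vehicle and 10 CA3 cells passed, 32 and 10 of them in the late cluster, and 6 and 4 cells lay near the gate. Cyp4a10 kept 506 and 477 CPM there, 0.84 (0.70 to 0.99) and 0.75 (0.54 to 1.002) times its level in middle cells outside the gate. Cyp4a14 fell to 27.7 and 31.8 CPM, from 8 and 3 UMIs, or 0.055 (0.024 to 0.11) and 0.059 (0.012 to 0.17) times its middle level. So in the cells of this gate Cyp4a14 was near its early level while Cyp4a10 was not. Acaa1b lay at 0.44 (0.36 to 0.53) and 0.32 (0.22 to 0.46) times its middle level in the same cells.

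The peroxisomal genes rose along the tubule with a smaller step. Acaa1b, the thiolase of the last step, stood at 163, 830 and 649 CPM in early, middle and late vehicle cells and at 222, 980 and 910 CPM in CA3 cells. Ehhadh, the bifunctional enzyme of the middle steps, stood at 80.7, 246 and 387 CPM and at 90.4, 265 and 357 CPM. The middle over early ratio was 5.11 (4.71 to 5.54) and 4.42 (4.10 to 4.77) for Acaa1b, and 3.05 (2.70 to 3.46) and 2.93 (2.59 to 3.32) for Ehhadh. Ehhadh was highest in late cells in both libraries, Acaa1b in middle cells.

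Cyp4b1 had a middle maximum and Cpt1a only small differences between the segments. Cyp4b1 stood at 54.3, 116 and 52.4 CPM in early, middle and late vehicle cells, and at 80.8, 195 and 105 CPM in CA3 cells. Its late level did not differ from the early level beyond counting error, with ratios of 0.97 (0.59 to 1.51) and 1.29 (0.75 to 2.10). Cpt1a stood at 105, 123 and 97.4 CPM and at 93.6, 128 and 105 CPM, so all segments lay within 1.5 times of each other. The middle over early ratio of Cpt1a was 1.17 (1.03 to 1.34) and 1.37 (1.18 to 1.58).

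Pdk4 and Angptl4 were also higher in middle than in early cells. Pdk4 stood at 30.5 and 157 CPM in early and middle vehicle cells and at 42.1 and 193 CPM in CA3 cells, and Angptl4 at 8.14 and 68.1 CPM and at 8.71 and 41.8 CPM. Their late levels, 87.4 and 191 CPM for Pdk4 and 19.97 and 117 CPM for Angptl4, rested on few cells. 3 cells held 88.6% and 100% of the late Pdk4 UMIs and 50% and 94.7% of those of Angptl4. Without the top 3 cells of each library and segment, the late over early ratio of Pdk4 turned from 2.86 and 4.53 to 0.56 and 0.

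Of the 8 genes, 7 were at least 2 times higher in middle than in early cells in each library, all but Cpt1a, where 3.23% (vehicle) and 3.56% (CA3) of all genes with 30 or more UMIs were. 6 of 8 were at least 2 times higher in late than in early cells in each library, against 6.9% and 7.34% of all genes. The 6 include Pdk4 and Angptl4, whose late levels rested on few cells. The vehicle ratio of Angptl4 was 2.45 (0.98 to 5.37). Over 8 other settings of the processing the late count was 4 to 6. None of the 8 was 2 times lower in middle or late than in early cells, where 4.74% and 4.52% (middle) and 28.5% and 35.7% (late) of genes were. The proximal tubule cells of each library were also ranked by a segment score and cut into 5 equal parts, without clusters. This score is the mean of S2 plus that of S3 markers minus that of S1 markers. It uses the markers that named the segments and cannot separate middle from late cells. From the first to the last part Cyp4a10 went from 25.6 to 753 CPM in the vehicle library and from 33.1 to 742 CPM in the CA3 library. Cyp4a14 went from 8.11 to 577 and from 13.1 to 608 CPM. All of the 8 genes but Cpt1a increased at each step in both libraries. Cpt1a went from 101 to 122 CPM in the vehicle library and from 72.4 to 124 CPM in the CA3 library.

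**Figure D1:**
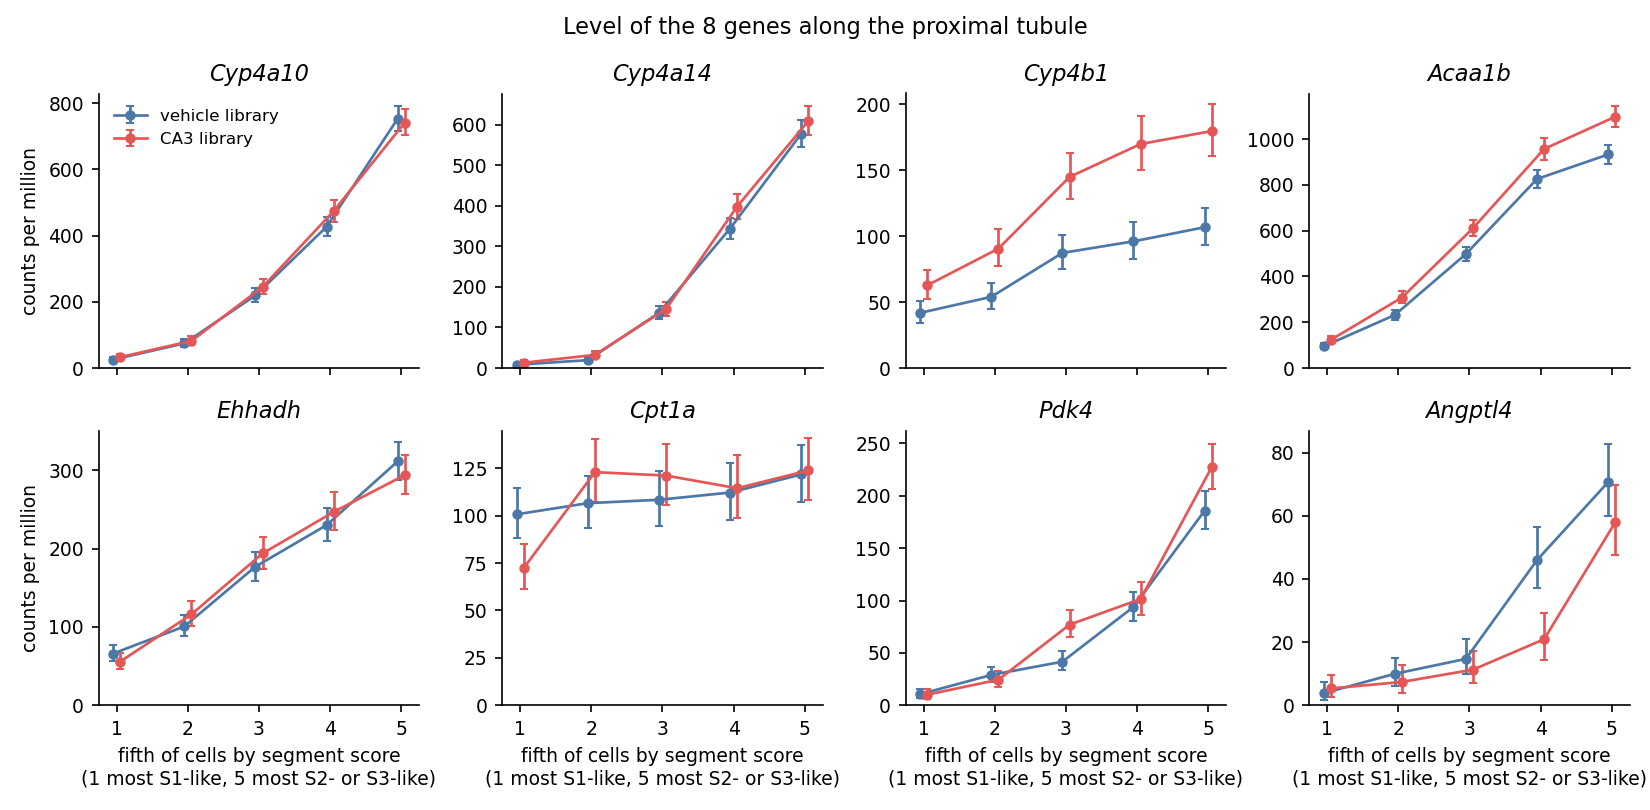
Levels in CPM (vertical axes) of the 8 genes in 5 equal parts of the proximal tubule cells of each library, ranked from most S1-like (1) to most S2- or S3-like (5) by marker score (horizontal axes). Points are sums over the cells of 1 library, bars the exact 95% interval for counting error. All of the genes but Cpt1a climb at each step in both libraries. Cpt1a lies at 101 (vehicle) and 72.4 CPM (CA3) in the first part and between 107 and 124 CPM from the second part on.

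The other known PPAR-alpha targets followed the same direction in part. Of 52 listed genes, 43 (vehicle) and 44 (CA3) had 30 or more UMIs in early and middle cells. 15 of them were at least 2 times higher in middle cells in each library and 1 was lower. The median log2 ratio was 0.72 and 0.62, against -0.09 and -0.08 over all genes. From early to middle cells of the vehicle and of the CA3 library, Acot1, a cytosolic acyl-CoA thioesterase, went from 41.6 to 184 CPM and from 32.4 to 161 CPM, and Ucp2, a mitochondrial carrier, from 4.75 to 25.7 and from 5.80 to 41.4 CPM. Fabp3, a fatty acid binding protein known from heart, ran the other way, from 139 to 10.8 CPM and from 133 to 10.5 CPM.

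The receptors did not show this slope. None of the 14 measured receptors and cofactors was 2 times higher or lower in middle than in early cells in either library. Ppara itself stood at 72.2 early and 86.2 CPM in middle vehicle cells and at 81.7 and 90.1 CPM in CA3 cells. In late cells, the segment with the highest Cyp4a10 level, Ppara was at 27.5 and 30.8 CPM from 11 and 5 UMIs. In the cells of the S3 gate, Cyp4a10 was at 0.84 and 0.75 times its middle level. Cd36, the fatty acid translocase, was nearly limited to late cells, with 200 and 191 CPM there (80 and 31 UMIs in 22 and 9 cells) against 3 and 1 UMIs in all early cells. In late cells, 3 cells held 40 of the 80 vehicle and 20 of the 31 CA3 UMIs of Cd36. Of the other 17 Cyp4 genes, 3 were measured in each library, and Cyp4a31, the neighbour whose 3' end is partly shared with Cyp4a10, rose from 84.1 to 275 CPM and from 89.5 to 301 CPM.

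Pdk4 and Angptl4 were concentrated in the clusters led by immediate early genes, and the Cyp4a genes were not. In cluster 4, the middle cluster of this kind, Pdk4 stood at 396 (364 to 431) CPM in the vehicle and 456 (418 to 497) CPM in the CA3 library. In cluster 5, the other deep middle cluster, it stood at 29.1 (19.5 to 41.8) and 63.0 (47.5 to 82.0) CPM, and in cluster 1, a shallower one, at 5.26 and 3.95 CPM. Angptl4 stood at 153 and 91.8 CPM in cluster 4, at 17.0 and 10.3 CPM in cluster 5 and at 18.8 and 11.8 CPM in cluster 1. Cyp4a14, in contrast, was not highest in the activated middle cluster, at 531, 373 and 562 CPM in clusters 4, 5 and 1 of the vehicle library and at 497, 414 and 689 CPM in the CA3 library. The early clusters repeated the contrast. Pdk4 stood at 116 and 201 CPM in cluster 6, against 2.10 and 5.21 CPM in cluster 3 and 2.12 and 3.24 CPM in cluster 0.

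Clusters 3 and 5 were the deep clusters of the same segments, nearest to clusters 6 and 4 in depth and mitochondrial share. Over both libraries, median depth was 10753.5 and 14151 UMIs in clusters 3 and 6 and 12109 and 12649.5 UMIs in clusters 5 and 4, with median mitochondrial shares of 11.7%, 11.03%, 15.5% and 11.6%. In the activated against the deep cluster, Pdk4 was 55.2 (21.0 to 206) and 38.7 (21.0 to 79.1) times higher among early cells, and 13.6 (9.38 to 20.6) and 7.24 (5.48 to 9.74) times among middle cells. Angptl4 was 8.05 (3.27 to 23.8) and 11.6 (4.67 to 34.5) times higher among early cells, and 8.98 (5.47 to 15.7) and 8.90 (4.51 to 19.99) times among middle cells. Both genes were past 2 times in each of the 4 comparisons, as were 2.31% and 2.61% of genes among early cells and 3.11% and 3.38% among middle cells. Cyp4a10 ratios were 1.34, 2.78, 1.39 and 0.98, and those of Cyp4a14 1.95, 1.74, 1.42 and 1.20, in the same order. Cyp4a10 in early CA3 cells was the only other case past 2 times. Cyp4b1, Cpt1a, Ehhadh and Acaa1b lay between 0.68 and 1.72. Whether these cells were activated in the animal or while the tissue was taken apart was not tested.

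**Figure D2:**
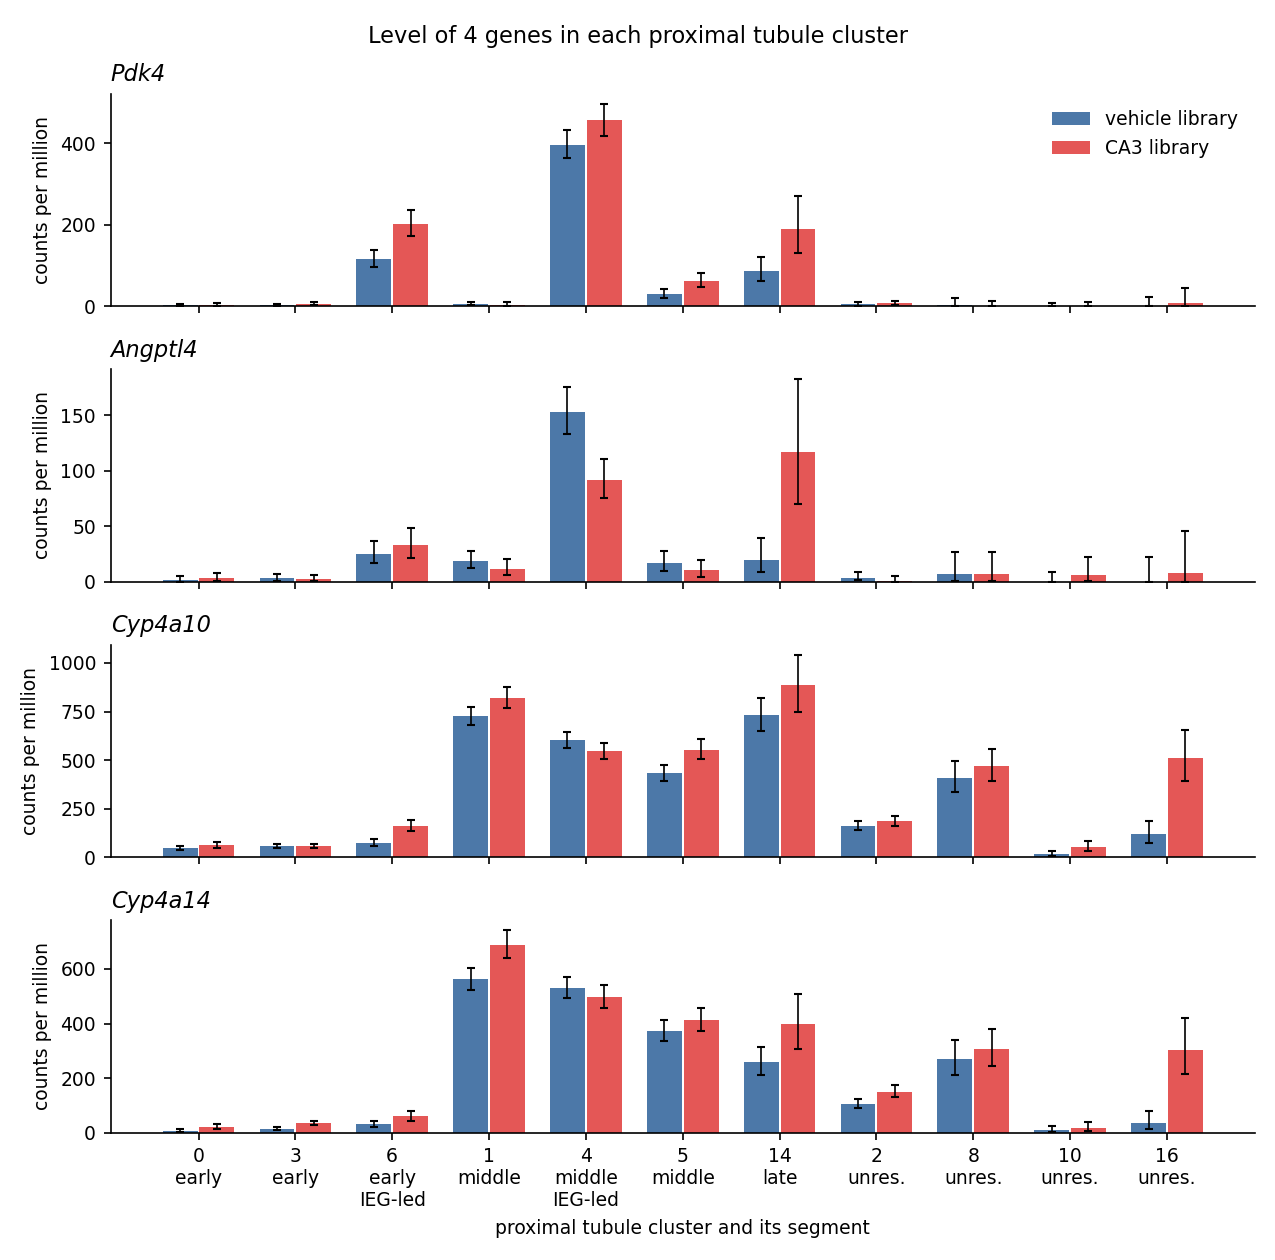
Levels in CPM (vertical axes) of Pdk4, Angptl4, Cyp4a10 and Cyp4a14 in the 11 proximal tubule clusters (horizontal axis, with the segment of each and IEG-led for those led by immediate early genes). Bars are sums over the cells of 1 library with the exact 95% interval for counting error. Pdk4 and Angptl4 peak in cluster 4 (396 and 153 CPM in the vehicle library), while Cyp4a10 and Cyp4a14 are high in clusters 1, 4, 5, 8 and 14 of both libraries and in cluster 16 of the CA3 library (511 and 305 CPM, against 120 and 35.9 in the vehicle library).

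Across single proximal tubule cells the genes fell into the same groups. Correlations are Pearson's r of log-normalised counts over 1442 vehicle and 1161 CA3 cells, which share a library and differ in depth, and they describe these cells only. Cyp4a10 and Cyp4a14 had r of 0.67 and 0.63, and Pdk4 and Angptl4 0.40 and 0.49. The 4 pairs across these groups had r between 0.19 and 0.25. Acaa1b went with Cyp4a10 (0.48 and 0.47) and with Ehhadh (0.40 and 0.44), whereas Cpt1a had r between -0.01 and 0.12 with each of the other 7 genes. So Pdk4 with Angptl4, and Cyp4a10 with Cyp4a14, formed pairs, and r between the pairs was lower than within them. It was still higher than for most genes. Among 6537 genes found in 10% or more of these cells, 1.01% to 2.28% had an r at least as high with the same Cyp4a gene.

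**Figure D3:**
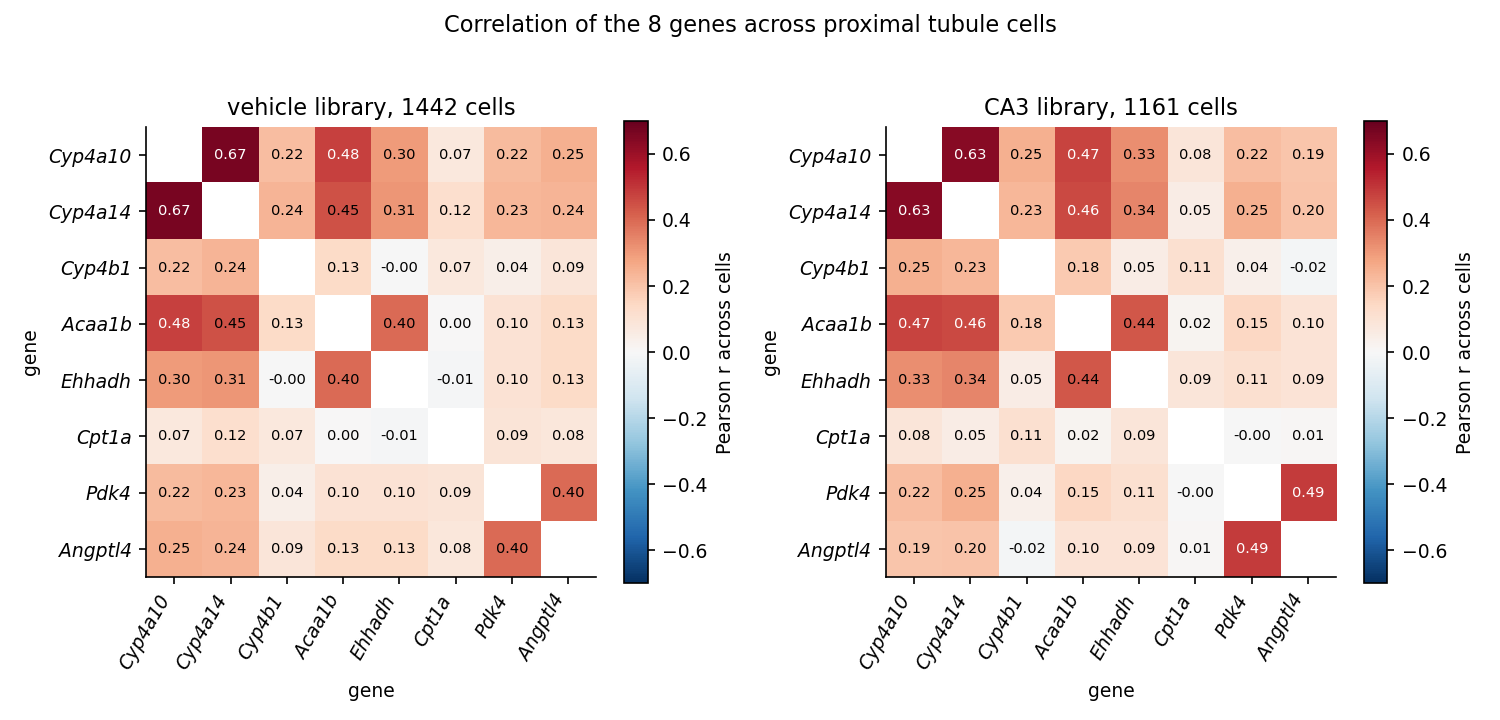
Pearson's r between the log-normalised counts of each pair of the 8 genes (both axes) across the proximal tubule cells of the vehicle library (left) and the CA3 library (right), with the colour scale from -0.7 to 0.7. The Cyp4a10 and Cyp4a14 pair (0.67 and 0.63) and the Pdk4 and Angptl4 pair (0.40 and 0.49) stand out, and the row of Cpt1a is near 0.

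Segment and depth went with the pairs to different degrees. The segment score had r of 0.64 and 0.65 with Cyp4a10, 0.60 and 0.63 with Cyp4a14 and 0.61 and 0.62 with Acaa1b, against 0.22 and 0.25 with Pdk4. Log depth had r of 0.25 and 0.25 with Pdk4 and 0.03 and 0.06 with Cyp4a10. After removal of the linear part of log depth, mitochondrial share and segment score, the mean r over both libraries was 0.41 against 0.65 for the Cyp4a pair and 0.12 against 0.22 for the 4 cross pairs. Without the clusters led by immediate early genes, the mean r of Pdk4 with Angptl4 was 0.16, against 0.44 with them. Within those 2 clusters alone it was 0.32, and the mean of the cross pairs there was 0.34. Those clusters are 1 early and 1 middle, so the segment difference of the Cyp4a genes is part of that value. In middle cells alone the mean of the cross pairs was 0.106.

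Cells with both genes show the same in counts. In the vehicle library 177 proximal tubule cells had a Pdk4 UMI, and 66 of them (37.3%) had an Angptl4 UMI, against 4.98% of the cells without Pdk4. In the CA3 library it was 57 of 154 cells (37.0%) against 3.87%. Cells with a Pdk4 UMI were deeper, with a median of 12875 against 6640 UMIs in the vehicle library. After thinning each cell to 2000 UMIs the shares were 10.8% against 1.75% and 17.3% against 1.66%. No Pdk4 UMI was found in 51 vehicle and 96 CA3 T or NK cells (median depth 5235 and 6082.5 UMIs). That allows a share of cells with a UMI of up to 5.88% and 3.12% (3 cells of the total). Among middle cells, Cyp4a10 was found in 94.9% and 94.9% of the cells with Pdk4, and in 83.6% and 92.97% of the cells without. After thinning these shares were 56.9% and 48.0% with Pdk4, and 54.7% and 57.6% without, so cells with Pdk4 were not the cells that lacked Cyp4a10. Cyp4a14, in the same thinned middle cells, was found in 58.6% and 72% with Pdk4, against 43.9% and 47.4% without. The intervals did not meet in the CA3 library (57.5% to 83.8% against 41.6% to 53.1%) and overlapped in the vehicle library. Over all thinned proximal tubule cells, Cyp4a10 was found in 45.9% and 44% with Pdk4, against 27.4% and 28.6% without.

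The genes most like each member were named by the highest mean r over both libraries among the 6537 or 6538 genes other than the member found in 10% or more of the proximal tubule cells of each library. After each other, Cyp4a10 and Cyp4a14 were most like Slc27a2, a fatty acid transport protein and acyl-CoA synthetase (0.59 and 0.55), and Rdh16f2, a retinol dehydrogenase family member (0.58 and 0.54). Acaa1b was most like Ttc36 (0.58), Hao2, a peroxisomal hydroxyacid oxidase (0.57), and Rdh16f2 (0.55). Ehhadh was most like Acaa1b (0.42), Hao2 (0.36) and Rida (0.35). Pdk4 was most like Fosb (0.64), Fos (0.62) and Txnip, the thioredoxin-interacting protein (0.59). Angptl4 was most like Pdk4 (0.44), Txnip (0.40) and Fosb (0.39). Cyp4b1 reached only 0.30 with Slc22a8, an organic anion transporter, 0.29 with Ces1d and 0.27 with Slc13a3, and Cpt1a only 0.14 with Lrp2, Slc13a3 and Slc22a8.

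Genes known to respond to glucocorticoids or fasting went with Pdk4 to different degrees. Dusp1, a phosphatase of both the glucocorticoid and the immediate early lists, had r of 0.56 and 0.56 with Pdk4, Sgk1, a kinase induced by corticosteroids, 0.41 and 0.43, and Cited2, a transcriptional coregulator, 0.32 and 0.31. Tsc22d3, a gene induced by glucocorticoids, had 0.20 and 0.12, Klf9 0.16 and 0.19, and the metallothionein Mt1 -0.07 and -0.07. Cited2 was the highest of the 5 FoxO and fasting genes compared. The others were Pck1 (0.19 and 0.23), G6pc (0.09 and 0.11), Irs2 (0.04 and 0.06) and Klf15 (0.03 and 0.06). With Angptl4, r was smaller for Dusp1 (0.31 and 0.27) and for Sgk1 (0.21 and 0.25). With Cyp4a10, Dusp1 had r of 0.05 and 0.05.

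Outside the proximal tubule, Cyp4b1, Cpt1a and Pdk4 had levels above those of free proximal tubule RNA in 1 or more classes of both libraries. Cyp4b1 stood at 532 (474 to 596) CPM in 40 vehicle and 469 (391 to 557) CPM in 38 CA3 endothelial-like cells, against 75.9 and 128 CPM in the proximal tubule. Free proximal tubule RNA was gauged with 12 marker genes of that segment, such as Miox and Slc34a1, whose median in endothelial cells was 7.61% and 10.5% of their proximal tubule level. Cyp4b1 was at 701% (612 to 801) and 367% (304 to 441) of its own, with the whole interval above the highest of the 12 (17.1% and 30.7%). It had a UMI in 72.5% and 55.3% of the endothelial cells, and 3 cells held 50% and 38.3% of the UMIs. Endothelial cells and not the tubule thus held the highest Cyp4b1 level of all classes with 10 or more cells per library.

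Cpt1a was spread over the nephron. It stood at 177 and 203 CPM in thick ascending limb-like cells, at 307 and 255 CPM in distal convoluted or connecting tubule-like cells, and at 152 and 171 CPM in principal-like cells, against 110 and 110 CPM in the proximal tubule. That is 162% and 185%, 280% and 232%, and 139% and 156% of the proximal tubule level. By the same rule, the lower bound above the highest of the 12 genes, Cpt1a was also above free RNA in both libraries in intercalated, endothelial and phagocyte-like cells. The phagocyte call was lost without the top 3 cells of each library, the intercalated call with a stricter cell filter and the principal call at Leiden resolution 0.5. Among the 8 genes and 7 other classes, 8 of 56 pairs were above that range in both libraries, 6 of them with Cpt1a. Of 10143 genes with 30 or more proximal tubule UMIs in each library the share above it in both was 82.4% in the thick ascending limb, 69.2% in distal convoluted or connecting tubule, 78.1% in principal, 67.8% in intercalated, 58.8% in endothelial, 57.4% in phagocyte and 50.3% in T or NK cells, so being above it is common. Cyp4a10, Cyp4a14, Acaa1b, Ehhadh and Angptl4 did not clear the range in both libraries in any of the 7 classes, most of which hold under 50 cells per library. Angptl4 did so in endothelial-like cells without the cell filter, and Ehhadh in distal convoluted or connecting tubule-like cells at Leiden resolution 0.5.

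Pdk4 in the thick ascending limb was the remaining pair. It stood at 70.5 (55.4 to 88.5) CPM in 90 vehicle cells and 47.2 (30.8 to 69.1) CPM in 48 CA3 cells, or 99.7% and 54.2% of the proximal tubule level. In the CA3 library 3 cells held 96.2% of these UMIs. Without the top 3 cells of each library, or without the cell filter, Pdk4 no longer cleared the range in both. Distal convoluted or connecting tubule-like cells had 54.8 and 35.1 CPM, above the range in the vehicle library only. Without the cell filter or at Leiden resolution 0.5, Pdk4 was above it there in both libraries. It was also above it in both in endothelial-like cells without the cell filter.

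**Figure D4:**
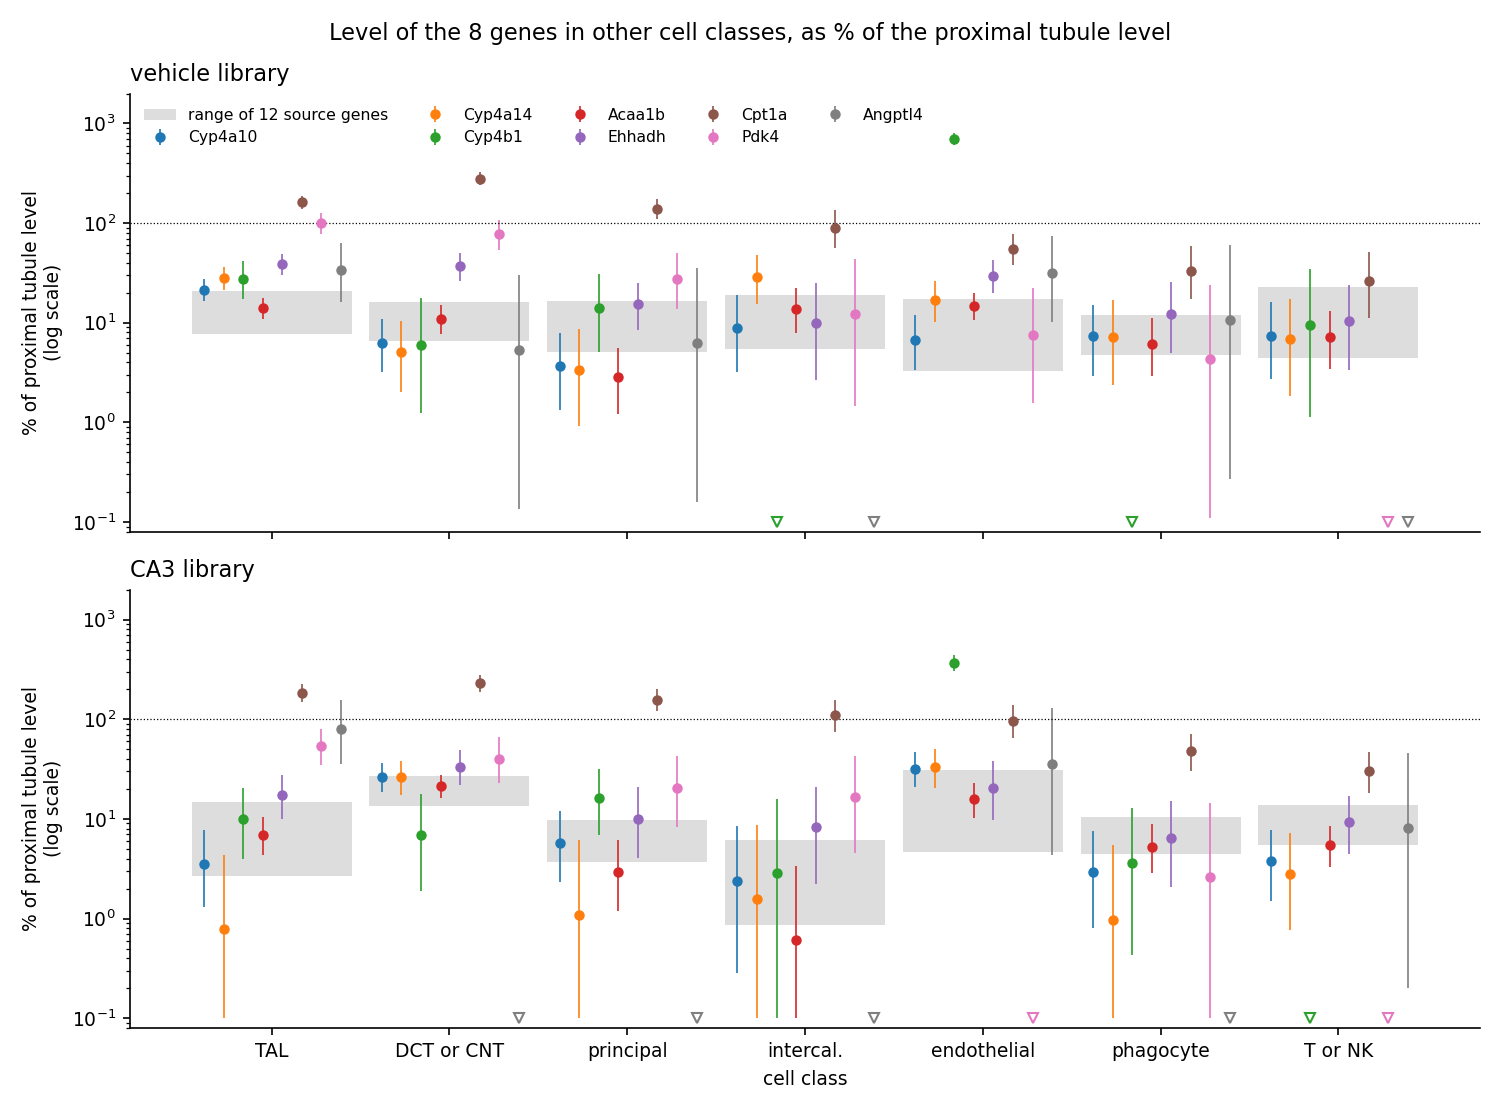
Level of each of the 8 genes in 7 other cell classes as a percent of its proximal tubule level (vertical axis, log scale) in the vehicle library (top) and the CA3 library (bottom). Points carry the exact 95% interval for counting error (lower ends drawn to the foot of the axis), grey blocks span 12 proximal tubule marker genes, open triangles are genes without a UMI, and the dotted line marks 100%. Cyp4b1 in endothelial cells (701% and 367%) and Cpt1a in the distal nephron stand above the grey blocks.

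Between the libraries, Cyp4b1 had the largest ratio of the 8 genes over all proximal tubule cells. It stood at 75.9 (70.8 to 81.3) CPM in the vehicle and 128 (120 to 135) CPM in the CA3 library, a ratio of 1.68 (1.53 to 1.84). The ratio was 1.49 in early, 1.68 in middle, 1.99 in late and 2.18 in unresolved cells, and it was above 1 in 9 of the 9 clusters with 30 or more UMIs, from 1.40 to 2.18. In endothelial-like cells of the same libraries it was 0.88 (0.71 to 1.09). The late value came from 21 and 17 UMIs (0.99 to 3.97) and was 1.22 without the top 3 cells of each library. The higher Cyp4b1 level of the CA3 library was therefore present in early, middle and unresolved cells and not detectable in the endothelial cells, whose interval lies below that of the proximal tubule. With each cell thinned to 2000 UMIs the proximal tubule ratio was 1.37 (1.12 to 1.66).

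Over all proximal tubule cells the ratios of the other genes were nearer to 1. Pdk4 stood at 70.7 and 87.1 CPM (ratio 1.23, 1.11 to 1.36) and Acaa1b at 502 and 605 CPM (1.20, 1.16 to 1.25). Cyp4a14 stood at 210 and 234 CPM (1.11, 1.05 to 1.18), Cyp4a10 at 292 and 309 CPM (1.06, 1.004 to 1.11), Ehhadh at 174 and 178 CPM (1.02, 0.96 to 1.10) and Cpt1a at 110 and 110 CPM (1.002, 0.92 to 1.09). Angptl4 alone was lower, at 28.3 and 20.5 CPM (0.72, 0.60 to 0.87), but with the early, middle and late segments weighted equally its ratio was 1.55, a value that includes the late cells, where 3 cells held 94.7% of the CA3 UMIs. So 1 of 8 genes was at least 1.5 times higher in the CA3 library and 0 were lower, against 2.52% and 3.96% of 11295 genes. The members' median log2 ratio was 0.12, against 0.00 over all genes.

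By cluster the ratios spread further. Among clusters with 30 or more UMIs of the gene, Acaa1b was above 1 in 11 of 11 (1.09 to 3.67, median 1.40) and Pdk4 in 4 of 4 (1.15 to 2.18, median 1.95). The 2.18 of Pdk4 came from the late cluster 14 (35 and 31 UMIs), and it was 0 without the top 3 cells of each library. Cyp4a14 was above 1 in 9 of 10 (median 1.48) and Cyp4a10 in 9 of 10 (median 1.18). Clusters of the same libraries are not replicates, and the share of all genes above 1 was not computed by cluster. The highest ratios came from cluster 16, an unresolved cluster of 18 vehicle and 19 CA3 cells, at 4.27 (2.54 to 7.46) for Cyp4a10, 8.49 (3.55 to 24.6) for Cyp4a14, 3.67 (2.48 to 5.54) for Acaa1b and 6.19 (2.51 to 18.3) for Ehhadh. Cluster 16 had a proximal tubule marker score of -0.18. Its score for injured proximal tubule markers, 0.40, was the highest of the proximal tubule clusters, and Spp1, Cd74 and Vcam1 were among its leading genes.

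Angptl4 and Pdk4 parted in the same cells. In cluster 4 Angptl4 was at 0.60 (0.47 to 0.76) times its vehicle level in the CA3 library, while Pdk4 was at 1.15 (1.02 to 1.3) times. In the early cluster 6 the ratios were 1.298 (0.73 to 2.30) and 1.74 (1.37 to 2.21). Without clusters 4 and 6 Angptl4 stood at 0.98 (0.67 to 1.42) times its vehicle level, and with each cell thinned to 2000 UMIs at 1.01 (0.61 to 1.65). In early cells Cyp4a14 was at 2.17 (1.63 to 2.90) times and in middle cells at 1.08 (1.005 to 1.15) times its vehicle level. Past 1.5 times were 1 gene in early cells (Cyp4a14), 2 in middle cells (Cyp4b1 higher, Angptl4 lower) and 3 in late cells (Cyp4a14, Cyp4b1 and Pdk4, all higher). In early cells 3.31% of genes were higher and 2.52% lower, in middle cells 3.98% and 3.19%, and in late cells 6.63% and 16.4%. In unresolved cells Cyp4a14 and Cyp4b1 were higher and none of the 6 measured was lower (4.38% and 7.54% of genes). The late ratios rested on few cells: without the top 3 cells of each library they were 1.19 for Cyp4a14, 1.22 for Cyp4b1 and 0 for Pdk4.

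**Figure D5:**
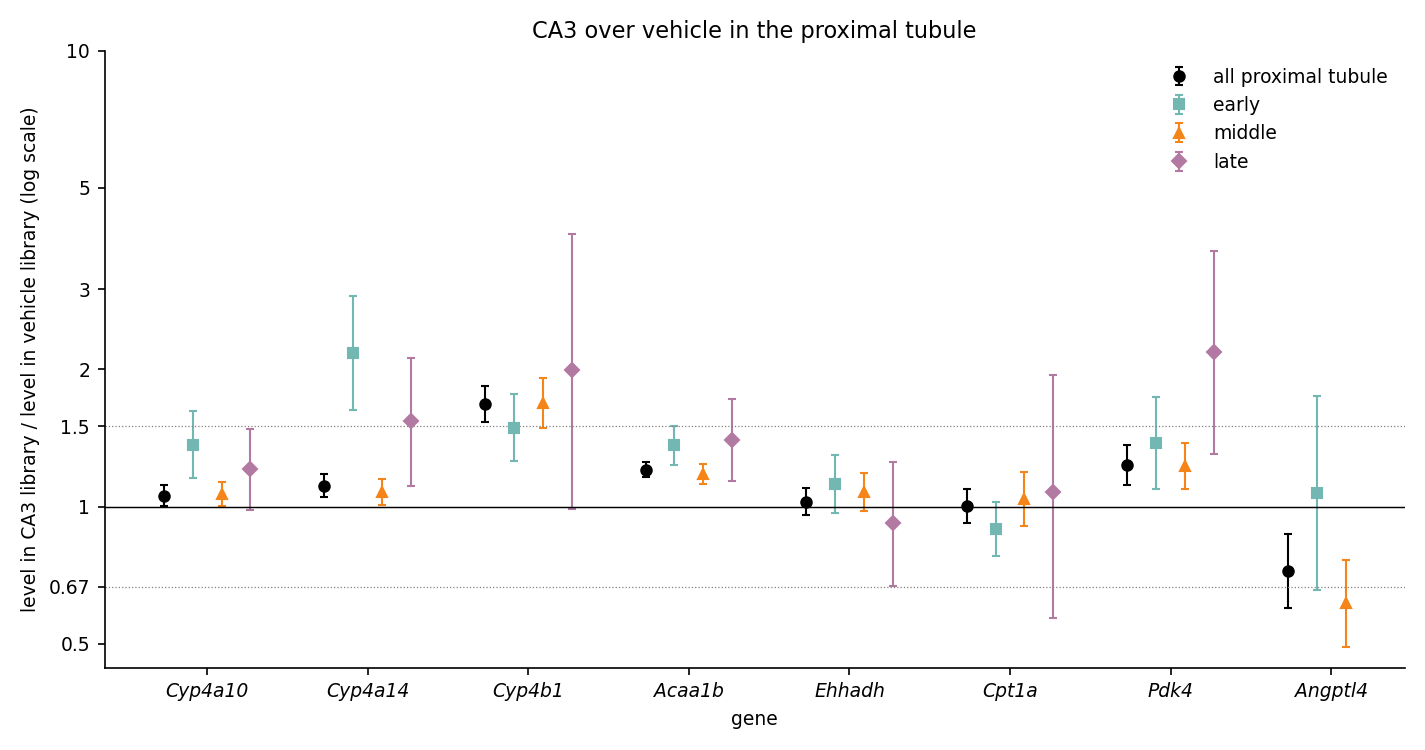
Ratio of the level in the CA3 library to that in the vehicle library (vertical axis, log scale) of the 8 genes (horizontal axis) in all proximal tubule cells and in early, middle and late cells, with the exact 95% interval for counting error. Dotted lines mark 1.5 times in either direction, and values from under 30 UMIs are left out. Cyp4b1 lies between 1.49 and 1.99 (1.68 in all proximal tubule cells), and Angptl4 in middle cells lies at 0.61.

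The listed genes of the same pathways differed little between the libraries. Of the other PPAR-alpha targets, 45 of 52 were measured in the proximal tubule, 1 was at least 1.5 times higher in the CA3 library and 1 lower, with a median log2 ratio of 0.02. The higher was Plin5, a lipid droplet protein (2.71 and 4.47 CPM, ratio 1.65, 1.0 to 2.75), and the lower Cd36 (8.4995 and 4.47 CPM, 0.53, 0.35 to 0.77). Cd36 UMIs sat mostly in late cells, which made up 54 of 1442 vehicle and 23 of 1161 CA3 cells. None of 15 receptors and cofactors was past 1.5 times, and Ppara stood at 76.9 and 81.9 CPM (1.07, 0.96 to 1.18). Of 5 other Cyp4 genes 1 was lower, Cyp4f17, at 2.71 and 1.63 CPM (0.60, 0.30 to 1.16).

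Genes that respond to glucocorticoids, fasting or hypoxia were mostly within 1.5 times as well. Of 9 glucocorticoid-responsive genes 1 was lower, the transcription factor Cebpd, at 12.9 and 5.23 CPM (0.41, 0.29 to 0.57), with 86 of its 138 vehicle and 19 of its 48 CA3 UMIs in late cells. Of 9 FoxO and fasting genes 1 was higher, the repressor Bcl6, at 9.15 and 14.5 CPM (1.58, 1.21 to 2.08). Pck1, the gluconeogenic carboxykinase of the same list, stood at 1721 and 2532 CPM (1.47, 1.44 to 1.4998) and G6pc, glucose-6-phosphatase, at 607 and 803 CPM (1.32, 1.28 to 1.37). 0 of 10 hypoxia genes were past 1.5 times.

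In the other classes 6 pairs of gene and class were at least 1.5 times higher and 5 at least 1.5 times lower in the CA3 library, among those with 30 or more UMIs. They were 3 higher and 1 lower of 6 in distal convoluted or connecting tubule-like cells (10.2% and 10.2% of all genes), 3 higher and 0 lower of 6 in endothelial-like cells (10.7% and 17.8%), and 0 higher and 4 lower of 6 in the thick ascending limb (7.64% and 9.93%). At most 1 gene reached 30 UMIs in each of the other classes. The 12 free RNA genes moved with them. Their median went from 10.96% of the proximal tubule level in the vehicle to 22.2% in the CA3 library in distal convoluted or connecting tubule-like cells, from 7.61% to 10.5% in endothelial-like cells and from 11.6% to 7.84% in the thick ascending limb. The part of free RNA or of mixed cells in these ratios was not tested.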

How the data were processed

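Each library was deposited as a matrix of raw counts, UMIs by gene and barcode, made with Cell Ranger 3.0.1 on mm10, per the submitters' processing notes. The libraries were 10x Chromium 3' libraries per the labels' protocols. How cells were called is not stated in the labels. Raw reads were not analysed here.

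Barcodes with 500 or more genes and a mitochondrial share of up to 50% were kept. Scrublet in scanpy then marked 1 vehicle and 3 CA3 cells as doublets, which were removed, so others may remain. 1 barcode sequence occurs in both libraries. The cells of both libraries were clustered together with scanpy 1.11.5 (2000 variable genes, 30 components, 15 neighbours, leidenalg 0.10.2 at resolution 1), leaving out the 8 genes and 6 lists. Other classes were named where a marker list's mean log-normalised difference from all other cells was 0.8 or more with 3 or more detected markers, and remaining clusters with proximal tubule markers formed that class. Late clusters scored 0.5 or more for S3 markers, and early and middle ones differed by 0.3 or more between S1 and S2 markers. Clusters led by immediate early genes scored 0.8 or more for those genes. Correlations used log(1 + counts per 10000).

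Levels are class sums of counts. Ratios of counts carry an exact interval (binomial, given their sum), levels the exact Poisson and shares the Clopper-Pearson interval, all at 95% and for counting error only (the limit beside a share of 0 is 3 cells of the total), since UMIs of 1 cell are not independent. Calls need 30 UMIs summed and 1.5 times between libraries or 2 times between segments. The interval calculation was tested on simulated data.

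The rule named the 8 genes, from each list up to 4 genes with the largest absolute log2 ratio at 30 or more UMIs, and the 3 genes most like each member. Ppara, Dusp1, Sgk1, Cited2, Tsc22d3, Mt1, Klf9, Irs2 and Klf15 were named after their values were seen. An item that the rule named is not reported here. The members and lists were chosen with earlier results of these data known.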

Additional observations from a re-analysis of the deposited data

Results flagged for a closer look

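The CA3 over vehicle ratio of 3 genes went in opposite directions in different cell classes, each with 1 library per group. The differences were not tested. Acaa1b was at 2.37 times its vehicle level in distal convoluted or connecting tubule-like cells and at 1.20 times in proximal tubule-like cells, against 0.592 times in the thick ascending limb. Cyp4a10 was at 4.45 times in distal convoluted or connecting tubule-like, 5.06 times in endothelial-like and 1.06 times in proximal tubule-like cells, against 0.173 times in the thick ascending limb. Cyp4a14 was at 5.78, 2.17 and 1.11 times in those 3 classes, against 0.0307 times in the thick ascending limb. Leaving out, per library, the 3 cells richest in the gene, the endothelial ratios were 1.13 for Cyp4a10 and 0.632 for Cyp4a14. The 12 proximal tubule genes used to gauge free RNA moved the same way, from a median of 10.96% to 22.2% of their proximal tubule level in distal convoluted or connecting tubule-like cells, from 7.61% to 10.5% in endothelial-like cells and from 11.6% to 7.84% in the thick ascending limb. Their part in these ratios was not tested.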

How the results depend on the processing

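No paired analysis was possible because each group is 1 library and the labels carry no replicate numbers, and no replicate could be left out. The number of members at least 1.5 times higher in the CA3 library, 1 as reported, was 0 with each cell thinned to 2000 UMIs, 4 with early, middle and late segments weighted equally, 2 without the clusters led by immediate early genes (added after seeing the data) and 0 at a threshold of 2 times. The number of pairs of gene and other class at least 1.5 times lower, 5 as reported, was 9 without the 3 cells with most UMIs. The mean correlation of Pdk4 with Angptl4, 0.443 as reported, was 0.193 in early cells, 0.159 without the clusters led by immediate early genes, 0.197 after thinning and 0.321 within those clusters alone (added). That of Cyp4a10 with Cyp4a14, 0.650 as reported, was 0.406 in early cells, 0.379 after thinning, 0.408 after removing the linear part of depth, mitochondrial share and segment score, and 0.433 in middle cells (added). The mean of the 4 cross pairs, 0.225 as reported, was 0.0121 in late cells, 0.122 without the clusters led by immediate early genes, 0.117 after removing the linear part, 0.106 in middle cells (added) and 0.344 within the clusters led by immediate early genes (added). Late over early ratios turned for Angptl4 after thinning (0 in both libraries), for Cyp4a14 in the CA3 library with the S3 gate (0.877, added) and for Pdk4 without the top 3 cells (0.565 in the vehicle and 0 in the CA3 library, added). The proximal tubule ratio of Angptl4 between the libraries, 0.72 as reported, was 1.55 with segments weighted equally. The endothelial ratio of Cyp4a14 between the libraries turned to 0.632 without the top 3 cells. The cause was not tested for any of these. The counts of members 2 times higher in middle or late cells stayed within 1.5 times of the reported ones. They were 6 to 7 for middle cells (7 as reported) and 4 to 6 for late cells (6 as reported). The small classes (late segment 54 and 23 cells, principal 22 and 14, intercalated 15 and 18) limit precision, and 1 library per group gives no replicate spread.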
